A study of Mus musculus with 8 samples.

Results

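The genes described here are 10 regulators of the integrated stress response, Atf3, Atf4, Atf5, Ddit3, Trib3, Cebpb, Cebpg, Chac1, Nupr1 and Sesn2, measured by bulk RNA sequencing of mouse kidney. They were found by their symbols, 10 among 21759 genes in the table. The list was chosen by known roles with the CPM and fold changes of the treatment comparison in view, so their differences between groups are given as a description. Calls at the adjusted threshold are listed for these genes further below, without single p-values, and are not read as tests of them. One group was 4 male knock-in mice of a MUC1 kidney disease model, 8 months old, given the small molecule BRD4780 at 50 mg/kg daily for 7 days. The other was 4 males of the same model and age given saline vehicle daily for 7 days. The sample titles name the treated group AGN50, while the treatment label gives BRD4780. Every animal carried the disease model, and no kidney without it is compared here. RNA came from a sagittal slice of kidney, so each value averages over all cell types of that slice. Library totals were 5.74 to 28.2 M estimated counts with BRD4780, where replicate 4 was the shallowest, and 16.6 to 28.5 M with vehicle. Replicate numbers follow the order of deposition and pair nothing. P-values measure the spread between these 8 samples.

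The integrated stress response starts when a kinase that senses stress (unfolded protein in the endoplasmic reticulum, lack of amino acids, lack of heme, or double-stranded RNA) phosphorylates the translation factor eIF2alpha. General protein synthesis then slows, while the mRNAs of ATF4, ATF5 and CHOP (the product of Ddit3) are translated better because of short upstream reading frames. ATF4 and ATF5 are basic leucine zipper (bZIP) transcription factors that pair with C/EBP proteins on composite DNA elements, and they switch on further regulators such as ATF3, CHOP, TRIB3 and CHAC1. Since much of this control acts on translation, mRNA levels show one layer of it.

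The DNA element bound by ATF4 with a C/EBP partner was looked for in the 250 bases upstream of each gene's start in RefSeq (GRCm38.p6), as the letters TGATGNAA on either strand. All 10 genes had an entry, with 11 windows because Atf5 has 2 starts. A match stood in 3 windows, those of Atf3, Chac1 and Nupr1, against 3.452% of all 32851 windows in the table. In all 3 genes the match read TTGCATCA on the gene's own strand, the reverse complement of TGATGCAA, a form present in 0.791% of all windows. That second form was looked up after the matches were seen. The stretches below show where each match lies, 5′ to 3′ on the gene's strand, with the match in capitals.
Atf3, chr1:191183406-191183473, minus strand: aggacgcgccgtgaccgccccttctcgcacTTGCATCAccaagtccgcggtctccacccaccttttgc
Chac1, chr2:119351019-119351086, plus strand: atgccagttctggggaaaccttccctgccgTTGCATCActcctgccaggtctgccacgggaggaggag
Nupr1, chr7:126625562-126625591, minus strand: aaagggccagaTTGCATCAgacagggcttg
The matches begin 110 bases upstream of the start in Atf3, 193 in Chac1 and 110 in Nupr1. In GENCODE M21 the Atf3 stretch is intronic to a longer Atf3 transcript, the Chac1 stretch lies outside any gene, and the Nupr1 stretch is within an exon of Nupr1 transcripts that start further upstream. The palindromic cAMP response element TGACGTCA (1.546% of all windows), the C/EBP site TTGCNNAA (9.564%) and the endoplasmic reticulum stress element ERSE (0.113%, both strands) had no match in the 11 windows. A match is a description of letters, and the lack of one covers these 250 bases only. The end of the Trib3 entry was found in no GENCODE M21 transcript, unlike those of the other genes. The lack of a match for Trib3 is therefore less certain.

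Atf5 showed the largest fold of the 10 genes and Atf4 the highest level. Atf4 (ENSMUSG00000042406, chromosome 15, 80255184 to 80257541, plus strand, GRCm38) had 189.6, 191.2, 159.4 and 191.8 counts per M (CPM, on totals scaled by TMM) in BRD4780 replicates 1 to 4, against 116.7, 129.9, 119.6 and 116.1 CPM in vehicle replicates 1 to 4. Each BRD4780 kidney lay above each vehicle kidney, and replicate 3 was the lowest of the treated kidneys. The log2 fold change, BRD4780 over vehicle, was 0.60 ± 0.08 (SE), or 1.52-fold. Atf5 (ENSMUSG00000038539, chromosome 7, 44812256 to 44816658, minus strand) stood at 132.6, 116.5, 48.8 and 142.2 CPM with BRD4780, against 14.4, 17.7, 14.8 and 14.6 CPM with vehicle. The vehicle kidneys were within a narrow band, while the treated kidneys spread over 2.91-fold. Even the lowest treated kidney, replicate 3, was at 2.76 times the highest vehicle value. The log2 fold change of Atf5 was 2.83 ± 0.29 (SE), or 7.11-fold.

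Compared per kilobase of exon, Atf5 was closer to Atf4 in the treated kidneys than in the vehicle ones. Its level per kilobase, as a ratio to that of Atf4, was 0.827, 0.721, 0.362 and 0.878 in BRD4780 replicates 1 to 4, against 0.146, 0.161, 0.147 and 0.149 in vehicle replicates 1 to 4. The groups did not overlap in this ratio. Of the summed CPM of all 10 genes, Atf5 made up 23.1%, 19.6%, 12.9% and 24.4% in BRD4780 replicates 1 to 4, against 5.24%, 5.51%, 5.01% and 5.38% in vehicle replicates 1 to 4. Exons of Atf5 share 82 bases, 4.1% of their length, with transcripts of Nup62 and Il4i1 on the opposite strand, and no source used here states whether counting used strand.

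**Figure D1:**
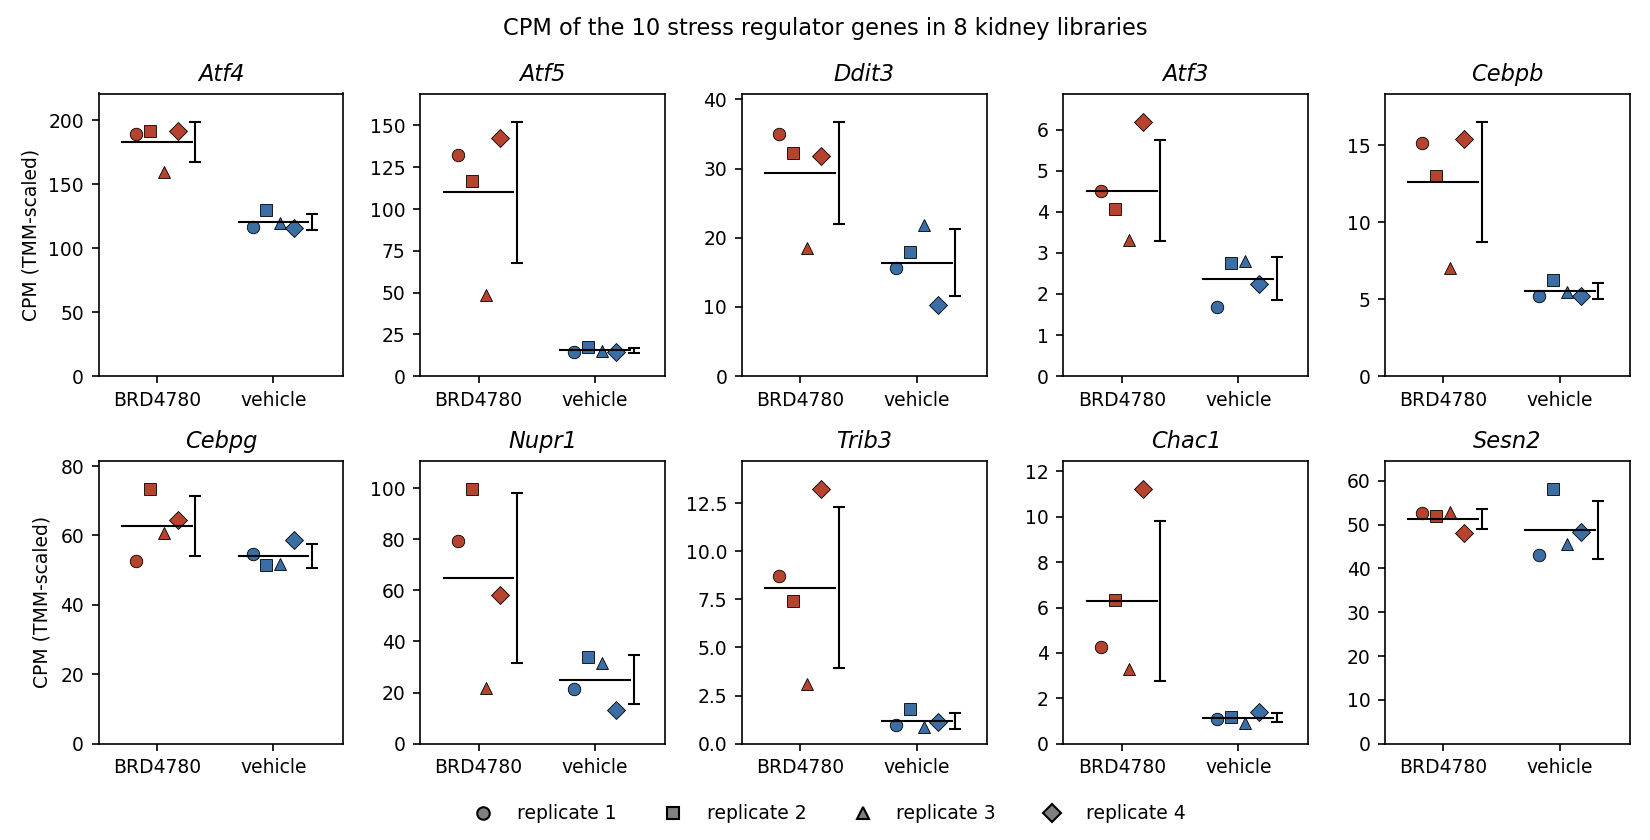
CPM (TMM-scaled, linear axis from 0) of each of the 10 genes in 4 BRD4780 libraries (red, left) and 4 vehicle libraries (blue, right), with marker shape for the replicate, a line at the mean and a bar of 1 SD. BRD4780 replicate 3 (triangle) is the lowest treated library in 8 of the 10 panels, and Cebpg and Sesn2 are the panels where it is not.

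Ddit3 and Atf3 encode stress-induced bZIP factors. CHOP lacks a DNA-binding region of the usual kind and acts mainly through C/EBP partners, and ATF3 is an early, short-lived response factor. Ddit3, on the plus strand of chromosome 10 (127290774 to 127296288), had 34.9, 32.3, 18.5 and 31.8 CPM with BRD4780, against 15.6, 17.9, 21.9 and 10.2 CPM with vehicle. The groups overlapped, because BRD4780 replicate 3 fell below vehicle replicate 3. Its log2 fold change was 0.84 ± 0.24 (SE). Ddit3 is listed under 2 Ensembl identifiers at 1 locus with identical values, which were counted as 1 gene, and 68 bases of its exons (4.0%) overlap Mars, a gene on the opposite strand. Atf3 (chromosome 1, 191170296 to 191218039, minus strand) was low throughout, at 4.51, 4.06, 3.31 and 6.19 CPM with BRD4780, against 1.69, 2.76, 2.80 and 2.24 CPM with vehicle. The groups did not overlap, although the lowest treated kidney was at 1.18 times the highest vehicle kidney. The log2 fold change of Atf3 was 0.89 ± 0.24 (SE), with 37 to 121 counts behind each BRD4780 value and 46 to 75 behind each vehicle value.

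Of the C/EBP partners, Cebpb had the larger log2 fold change, and the difference from Cebpg was not tested. Cebpb, a C/EBP factor of inflammation, acute phase and stress, had 15.1, 13.02, 7.02 and 15.4 CPM with BRD4780, against 5.20, 6.26, 5.48 and 5.22 CPM with vehicle. The groups did not overlap, and the log2 fold change was 1.17 ± 0.23 (SE). Its only exon shares 312 bases, 20.7% of its length, with Tmem189 on the opposite strand, so its level is less certain if counting ignored strand. Cebpg, which lacks an activation domain and dimerizes with ATF4, had 52.6, 73.3, 60.7 and 64.4 CPM with BRD4780, against 54.6, 51.5, 51.6 and 58.8 CPM with vehicle. Its groups overlapped, since BRD4780 replicate 1 lay within the vehicle range. The log2 fold change of Cebpg was 0.21 ± 0.10 (SE).

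Nupr1, a small stress-induced chromatin cofactor, was the most variable of the 10 among vehicle kidneys. It stood at 79.3, 99.5, 21.7 and 58.1 CPM with BRD4780, against 21.4, 34.1, 31.6 and 13.2 CPM with vehicle. BRD4780 replicates 1, 2 and 4 lay above every vehicle kidney, and replicate 3 was inside the vehicle range. The log2 fold change was 1.37 ± 0.42 (SE), an error like that of Trib3 and wider than those of the other 8 genes.

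The other genes encode products that carry out or dampen the response. Trib3, a pseudokinase that binds ATF4 and CHOP and feeds back on them, had 8.69, 7.41, 3.08 and 13.2 CPM with BRD4780, against 0.969, 1.80, 0.853 and 1.121 CPM with vehicle. The groups did not overlap, and the log2 fold change was 2.70 ± 0.42 (SE). Chac1, an enzyme that breaks down glutathione, had 4.26, 6.34, 3.31 and 11.2 CPM with BRD4780, against 1.08, 1.18, 0.914 and 1.38 CPM with vehicle. The groups did not overlap here either, with a log2 fold change of 2.38 ± 0.37 (SE). Vehicle values of both genes rest on few counts, 14 to 49 per library for Trib3 and 15 to 32 for Chac1. Sesn2, a leucine sensor that restrains the growth kinase complex mTORC1, was the flattest gene, at 52.6, 52.0, 52.9 and 48.0 CPM with BRD4780, against 43.1, 58.1, 45.6 and 48.3 CPM with vehicle. All 4 treated values lay inside the vehicle range, and the log2 fold change was 0.08 ± 0.10 (SE).

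Over the 10 genes, all of which passed the filter on low counts, 5 were called higher and 0 lower by edgeR's quasi-likelihood test at an adjusted p under 0.05 over 13474 genes, where 2.92% of all genes were called, 2.3% higher and 0.623% lower. They were Atf4, Atf5, Trib3, Cebpb and Chac1. In 6 genes every BRD4780 kidney lay above every vehicle kidney, as in 7.44% of all genes tested, and in 0 did every one lie below, as in 5.16%. The median log2 fold change was 1.03 over the 10 genes and 0.01 over all genes tested. Since the genes were picked with this comparison in view, nothing is read from these counts. Inside the threshold the smallest log2 fold change was that of Atf4 (0.60), and outside it the largest was that of Nupr1 (1.37). Without BRD4780 replicate 3, 8 of the 10 were called, while 23.5% of all genes tested were called. Without any 1 of the other 7 libraries 2 to 4 of the 10 were called, with 2, Atf4 and Atf5, without vehicle replicate 1. Cebpb lost its call with limma-voom and without any 1 of those 7 libraries, and Trib3 and Chac1 lost theirs without 2 libraries each.

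**Figure D2:**
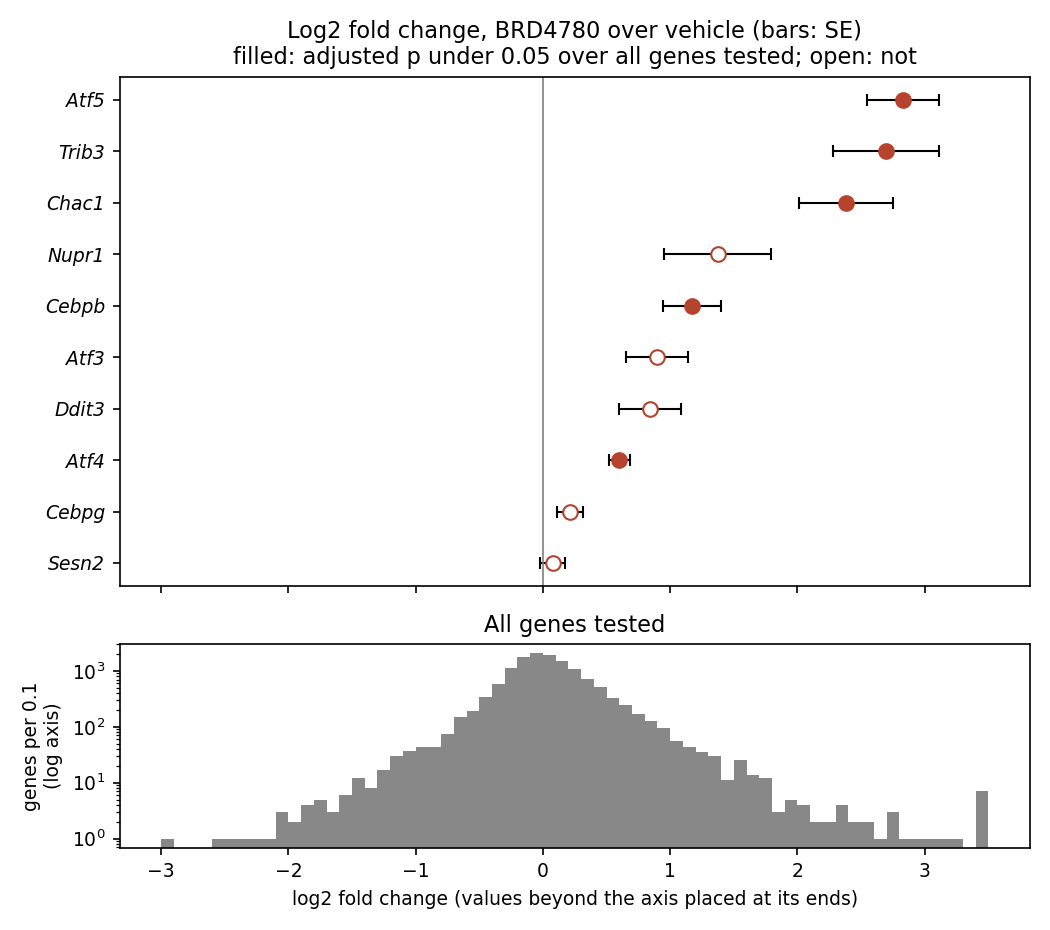
Log2 fold change, BRD4780 over vehicle, of the 10 genes with 1 SE (top; filled circles are called at an adjusted p under 0.05 over all genes, open circles are not), above the distribution of all 13474 genes tested (bottom, log axis). Atf5, Trib3 and Chac1 lie between 2.38 and 2.83, and Cebpg and Sesn2 lie at 0.21 and 0.08.

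The treated kidneys varied, and the same kidney was low in most of the genes. BRD4780 replicate 3 was the lowest treated library in 8 of 10 genes, and replicate 4 the highest in 6. How often this order held over all genes was not counted, so it is not read as particular to these genes. Over all genes tested, 2.92% were called with BRD4780 replicate 3 and 23.5% without it. Set against the vehicle mean, Atf5 was at 8.62, 7.58, 3.18 and 9.25 times that level in BRD4780 replicates 1 to 4. Trib3 was at 7.32, 6.25, 2.59 and 11.1 times its vehicle mean, and Nupr1 at 3.16, 3.97, 0.867 and 2.31 times. The level in replicate 3 as a share of the mean of the other 3 treated kidneys was 0.275 for Nupr1, 0.315 for Trib3, 0.374 for Atf5, 0.835 for Atf4 and 1.04 for Sesn2. Among vehicle kidneys replicate 2 was the highest in 6 of the 10 genes.

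Deviations from the mean of the own group, which do not use the difference between groups, were compared between genes over the 8 libraries. Of 45 gene pairs 35 had a positive Pearson r, with a median of 0.57. The closest pair was Atf5 with Cebpb (r = 0.997), followed by Atf4 with Cebpb (0.936) and Atf4 with Atf5 (0.932). Ddit3 and Nupr1 formed a further close pair (0.912), above their vehicle mean in replicates 2 and 3 and below it in replicate 4. Over the 8 libraries Cebpg had r between -0.286 and 0.500 with the others and Sesn2 between -0.205 and 0.286, but these pool unlike groups. Sesn2 with Atf5 had r = -0.531 among the 4 BRD4780 libraries and 0.946 among the 4 vehicle libraries, and with Trib3 -0.731 with BRD4780 and 0.945 with vehicle. Its r with Cebpb (-0.511 and 0.902) and Atf4 (-0.471 and 0.891) also differed in sign, BRD4780 against vehicle, and Cebpg with Nupr1 had 0.219 with BRD4780 and -0.998 with vehicle. Among the 4 BRD4780 libraries Sesn2 deviated by only -0.096 to 0.042 (log2 CPM). The lowest value was that of the shallow replicate 4, with 287 counts. No change in how these genes vary together is read from these signs. Atf5 with Cebpb was at 0.998 with BRD4780 and 0.984 with vehicle. These values are descriptions over 8 libraries that differ in depth and composition. BRD4780 replicate 3 carries much of the spread, with deviations of -1.37 for Nupr1, -1.20 for Trib3 and -1.06 for Atf5 (log2 CPM).

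**Figure D3:**
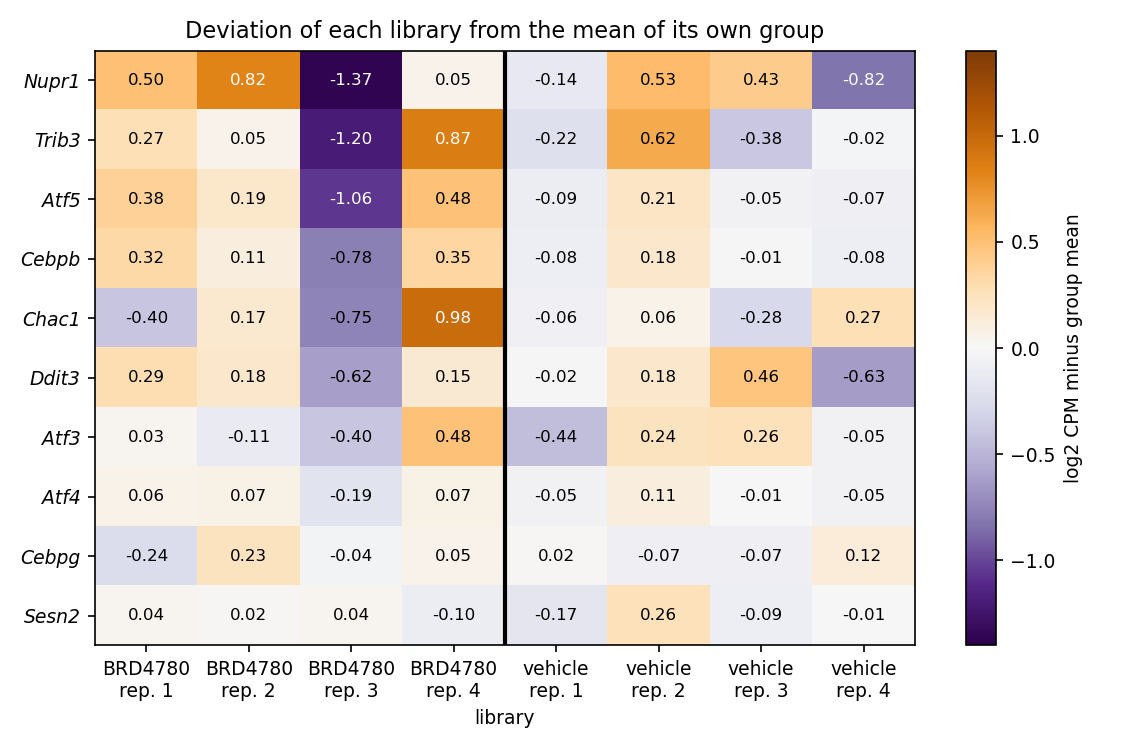
Deviation of log2 CPM from the mean of the own group (colour and printed value) for the 10 genes in 8 libraries, BRD4780 on the left and vehicle on the right. BRD4780 replicate 3 is negative in every gene except Sesn2, from -1.37 for Nupr1 to -0.04 for Cebpg.

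Outside the 10 genes, the genes most like Atf5 in these deviations, among 9315 genes whose log2 CPM averaged 3 or more, were Pck2 (r = 0.980), Bag1 (0.980), Nans (0.977), Ofd1 (0.976) and Snrpd1 (0.971). Pck2, the mitochondrial enzyme that makes phosphoenolpyruvate, also rose with treatment, to 140.1 ± 54.0 CPM with BRD4780 against 28.0 ± 1.4 CPM with vehicle (SD, n = 4 each). The other 4 genes like Atf5 were not called, and the log2 fold changes of Bag1 and Snrpd1 were -0.03 and -0.03. The genes most like Atf4 were Ccdc12 (0.983), Nans (0.982), Trabd (0.977), Wtip (0.972) and Pfkfb3 (0.968), of which none was called. In all, 132 genes passed r = 0.9 with Atf5 and 66 with Atf4. Nans shares 29.6% of its exon length with a gene on the opposite strand.

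Per kilobase of exon, which allows levels of different genes to be set in order, Atf4 was the highest of the 10 in both groups, at 77.6 ± 6.7 CPM per kilobase with BRD4780 and 51.1 ± 2.7 with vehicle (SD, n = 4 each). Atf5 came next with BRD4780, at 55.2 ± 21.2, but was only sixth of 10 with vehicle, at 7.71 ± 0.79. In the treated kidneys Nupr1 (25.7 ± 13.2), Ddit3 (17.2 ± 4.3), Sesn2 (14.8 ± 0.7) and Cebpg (11.2 ± 1.5) followed. Neighbours overlapped between libraries from Atf4 down to Sesn2, while every Sesn2 value (13.8 to 15.2) lay above every Cebpg value (9.35 to 13.04). Cebpb was at 8.41 ± 2.59, Chac1 at 3.84 ± 2.15, Trib3 at 3.81 ± 1.96 and Atf3 at 2.10 ± 0.57 CPM per kilobase with BRD4780. In the vehicle kidneys Sesn2 came second (14.0 ± 1.9), followed by Nupr1 (9.98 ± 3.83), Cebpg (9.63 ± 0.61) and Ddit3 (9.58 ± 2.84), a trio not separated by its spread. At the low end of the vehicle order were Cebpb (3.68 ± 0.33), Atf3 (1.10 ± 0.24), Chac1 (0.695 ± 0.119) and Trib3 (0.559 ± 0.201). Divided by the longest transcript in place of the union of exons, Ddit3 moved to 30.3 CPM per kilobase and rank 3 with BRD4780, and to 16.9 and rank 2 with vehicle.

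**Figure D4:**
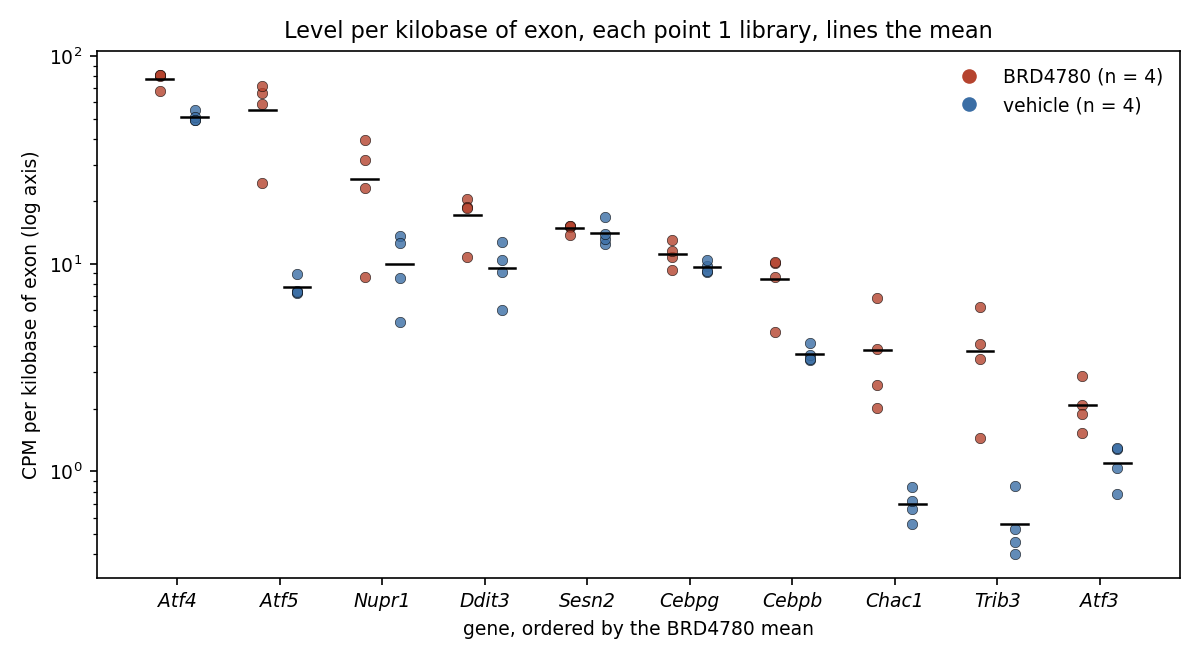
Level of the 10 genes in CPM per kilobase of annotated exon (log axis), each point 1 library and each line a mean, with BRD4780 in red on the left and vehicle in blue on the right of each gene, ordered by the BRD4780 mean. Atf4 leads in both groups, and Atf5 is at 55.2 with BRD4780 and 7.71 with vehicle.

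Genes that ATF4 is known to switch on in amino acid, folate and tRNA metabolism were next taken as a list. It and the lists that follow were chosen with earlier results of these data known. Their counts and p-values are therefore given as a description. Of 39 listed, 39 were tested, 13 rose (33.3%, against 2.3% of all genes) and 0 fell, with a median log2 fold change of 0.46. The 4 with the smallest p were Mthfd2, Fgf21, Aldh18a1 and Slc3a2. Mthfd2, a mitochondrial folate enzyme, stood at 25.2, 31.5, 13.03 and 41.0 CPM with BRD4780, against 4.16, 5.27, 5.30 and 4.18 CPM with vehicle (log2 fold change 2.53 ± 0.30 SE, adjusted p = 0.00468 by edgeR). Slc3a2, the heavy chain of amino acid exchangers, had 235, 274, 224 and 336 CPM with BRD4780, against 150.1, 157, 159 and 147 CPM with vehicle (0.80 ± 0.12 SE, adjusted p = 0.0141 by edgeR). Aldh18a1, which starts proline synthesis, had a log2 fold change of 1.75 ± 0.26 (SE). For Fgf21, which encodes a metabolic hormone, the BRD4780 group held 112 counts and the vehicle group 2, a ratio of 61.2 with a 95% exact binomial interval of 16.6 to 512 that covers counting error only. In Mthfd2, Aldh18a1, Slc3a2 and Fgf21, BRD4780 replicate 3 was again the lowest treated library. The count of 13 became 25 (with 4 called lower) without BRD4780 replicate 3 and 2 to 7 without any 1 of the other 7 libraries. Over all genes tested, 23.5% were called either way without BRD4780 replicate 3.

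Upstream, 20 tested genes of eIF2alpha kinases, phosphatase subunits and the exchange factor eIF2B had 2 that rose and 0 that fell. The share that rose was 10%, against 2.3% of all genes. Impact, whose product restrains the kinase GCN2, stood at 55.4 ± 9.9 CPM with BRD4780 and 32.8 ± 6.8 CPM with vehicle (SD, n = 4 each; adjusted p = 0.0448 by edgeR). Eif2ak3, which encodes the endoplasmic reticulum stress kinase PERK, stood at 47.1 ± 5.4 CPM with BRD4780 and 35.3 ± 2.2 CPM with vehicle (SD, n = 4 each; adjusted p = 0.0489 by edgeR). This list had 6 called without BRD4780 replicate 3, a setting that called 23.5% of all genes. It had 0 to 1 called without any 1 of the other libraries, 0 with limma-voom, and a median log2 fold change of 0.04.

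Of 46 other bZIP genes listed, 39 were tested, 0 rose and 1 fell, with a median log2 fold change of 0.11. Over all genes tested, 2.3% rose and 0.623% fell. The member that fell was Xbp1, the factor of another branch of the unfolded protein response, at 122 ± 11 CPM with BRD4780 and 177 ± 30 CPM with vehicle (SD, n = 4 each; adjusted p = 0.0451 by edgeR). DESeq2 called 4 higher and 3 lower in this list, and without BRD4780 replicate 3 edgeR called 8 higher and 5 lower. Over all genes tested, DESeq2 called 10.5% and edgeR without that library called 23.5%. The call on Xbp1 was lost without any 1 of the other 7 libraries and with limma-voom, each of which called 0 in this list. Among 6 tested paralogs of Trib3, Sesn2, Chac1 and Nupr1, Trib2 fell and 0 rose. Trib2 stood at 65.2, 57.3, 68.5 and 58.2 CPM with BRD4780, against 126, 104, 105 and 100.1 CPM with vehicle (log2 fold change -0.80 ± 0.10 SE, adjusted p = 0.00472 by edgeR), so Trib2 and Trib3 differed in sign.

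Targets of the protein folding branches had medians below 0. Of 22 tested targets of ATF6 and XBP1, 0 rose and 1 fell, Pdia4, a disulfide isomerase gene, at 127 ± 11 CPM with BRD4780 and 169 ± 11 CPM with vehicle (SD, n = 4 each; adjusted p = 0.0354 by edgeR). The median log2 fold change of that list was -0.18, with 4 of 22 values positive. Over all genes tested, 0.623% were called lower by edgeR. Of 14 tested genes of the mitochondrial unfolded protein response, a set linked to ATF5, 0 were called in either direction by edgeR and 0 higher and 3 lower by DESeq2, with a median of -0.17 and 2 of 14 values positive. The smallest p there belonged to the cochaperone gene Dnaja3, at 146 ± 17 CPM with BRD4780 and 183 ± 12 CPM with vehicle (SD, n = 4 each; adjusted p = 0.0825 by edgeR). DESeq2 called 1 higher and 9 lower among the ATF6 and XBP1 targets, and 10.5% of all genes either way. Without BRD4780 replicate 3, 8 of the ATF6 and XBP1 targets and 7 of the mitochondrial genes were called lower. Over all 13558 genes tested in that setting, 1537 were called lower. Without any 1 of the other 7 libraries the counts of lower calls in these lists, in the same order, were 0 to 2 and 0.

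**Figure D5:**
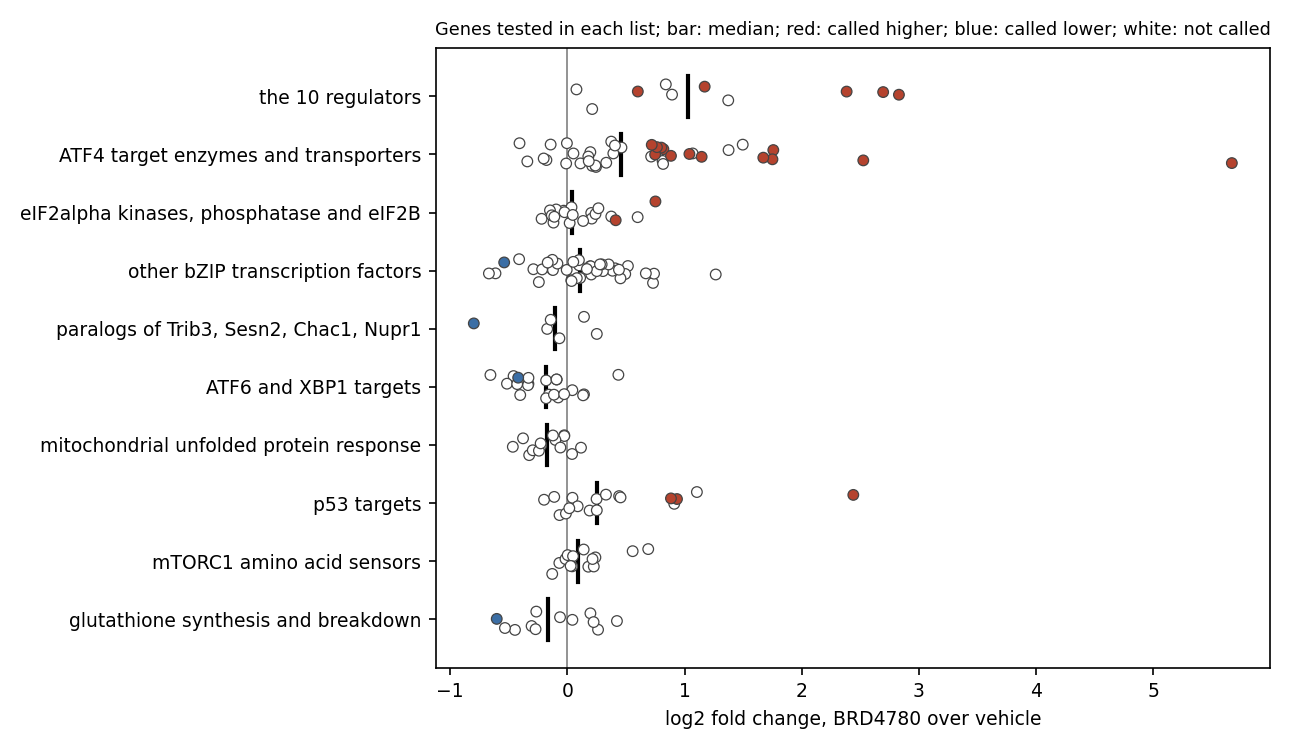
Log2 fold change, BRD4780 over vehicle, of each tested gene in the 10 regulators and 9 pathway lists (red, called higher; blue, called lower; white, not called; bar, median). The medians run from 1.03 for the 10 regulators and 0.46 for ATF4 targets to -0.18 for ATF6 and XBP1 targets.

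Cell type markers moved beside these genes, and in bulk tissue fewer cells of a type and less RNA per cell cannot be told apart. The summed CPM of 12 proximal tubule markers was 52852, 41884, 68460 and 45749 in BRD4780 replicates 1 to 4, against 62371 to 71108 in the vehicle group. In this sum BRD4780 replicate 3, the kidney that was low in 8 of the 10 regulators, was inside the vehicle range. The other treated kidneys were below it. Without the abundant androgen-regulated gene Kap the sums were 16947, 16001, 23883 and 16249 with BRD4780, against 20156 to 21290 with vehicle. BRD4780 replicate 3 was then above the vehicle range, and the other treated kidneys were still below it. A few abundant genes weigh most in this sum, such as Slc34a1 (4738 CPM in BRD4780 replicate 1) and Slc27a2 (3695 CPM). Of the 12 markers 3 had a positive log2 fold change, with a median of -0.12 over the list. Slc5a12 was above vehicle in every treated kidney (0.25 ± 0.11 SE). The part of these markers in the results on the 10 genes was not tested, and no proximal tubule marker was called by edgeR.

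The marker counts below stand beside 2.3% of all genes called higher and 0.623% called lower. Podocyte markers had 4 of 10 higher, led by Nphs1, the slit diaphragm gene nephrin. The sum of the podocyte markers was 226 to 341 CPM with BRD4780 and 71.5 to 161 CPM with vehicle. Endothelial markers had 4 of 12 higher, led by Egfl7, with a sum of 476 to 601 CPM with BRD4780 and 216 to 402 CPM with vehicle. Thick ascending limb markers had 3 of 8 lower, led by the potassium channel gene Kcnj1, with a sum of 2076 to 3336 CPM with BRD4780 and 3146 to 4211 CPM with vehicle. Of 5 distal convoluted tubule markers 1 rose, the magnesium channel gene Trpm6, with a sum of 1021 to 1476 CPM with BRD4780 and 807 to 1144 CPM with vehicle. By edgeR, no member was called in the lists for principal cells (8 tested), intercalated cells (7), macrophages (9), neutrophils (2 of 7 in the table), lymphocytes (2 of 9), fibroblasts and pericytes (9), adipocytes (6), erythrocytes (4), injured tubule (12) and immediate early genes (11). Macrophage markers, relevant to Cebpb, summed to 538 to 795 CPM with BRD4780 and 742 to 799 CPM with vehicle. Immediate early genes, a group that also answers to tissue handling, summed to 257 to 384 CPM with BRD4780 and 232 to 279 CPM with vehicle, and BRD4780 replicate 3 was again the lowest treated library. Without BRD4780 replicate 3 the counts were 9 podocyte, 9 endothelial and 3 distal convoluted tubule markers higher and 6 thick ascending limb markers lower. That setting called 23.5% of all genes tested. Without any 1 of the other 7 libraries the marker counts were 0 to 5, 0 to 3, 0 and 0 to 4 in the same order of lists. The part of these markers in the results was not tested.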

How the data were processed

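The authors deposited 1 table of expected counts (estimated read counts per gene, not normalized), of which 15.1% to 28.9% per library were not whole. Tools listed per the submitters' processing notes are Picard, RSEM 1.3.0 and STAR 2.5.2b, beside the builds hg19 and mm10, without roles. No source used here states the annotation or strand setting. The table had 22121 entries, and 343 symbols on more than 1 line with identical values were collapsed, leaving 21759. A further 1 column of values matched no sample and was not used. The members, 9 pathway lists and 15 marker lists were chosen with earlier results of these data known.

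Expected counts were rounded, filtered with filterByExpr (minimum count 10), scaled by TMM and tested with the quasi-likelihood F-test of edgeR 4.0.16 (R 4.3.3), adjusted by Benjamini-Hochberg over 13474 genes (threshold 0.05). The SE is the absolute log2 fold change over the square root of F. On simulated counts with known changes over 13483 genes, the test called 52% of genes changed 1.5-fold and 86% changed 2-fold, with 11 false calls among 180. Named genes were all members, up to 4 called genes per pathway list by smallest p (or the single smallest p), the called marker with the smallest p, and the 5 genes most like Atf4 and Atf5. Coordinates and exon lengths came from GENCODE M21 (GRCm38), and promoter windows from RefSeq. A count of 0 allows up to 3 counts, 0.105 to 0.523 CPM. The libraries are separate animals by the design text. Alternatives were RLE, upper-quartile or no scaling factors, other filters, DESeq2 1.42.0, limma-voom (limma 3.58.1), a block on the title number, and leaving out each library.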

Additional observations from a re-analysis of the deposited data

Results flagged for a closer look

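In 58 groups of 4 libraries examined (the 10 regulators and 19 named genes of the lists, in each arm), 2 held a library far from the other 3 by Dixon's test. Chance flags about 1 in 20, so 2 flags in 58 groups are no more than chance would give. Atf4 in BRD4780 replicate 3 was at 159.4 CPM, while the other treated libraries were at 189.6 to 191.8 CPM. Atf5 in vehicle replicate 2 was at 17.7 CPM, while the other vehicle libraries were at 14.4 to 14.8 CPM.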

How the results depend on the processing

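Scaling factors and filters kept 5 members called. All genes called were 310 higher and 84 lower, and 864 and 497 with DESeq2, which called 7 members. Limma-voom called 204 higher and 4 members. With the title number as a replicate block (2 numbers stand in both groups, their meaning is not given, and 1 residual degree of freedom is left) 57 genes were higher, 90 lower and 2 members called, and Sesn2 turned to a log2 fold change of -0.018. Fold changes under the block rest only on BRD4780 replicates 1 and 2 and vehicle replicates 2 and 4, which share those numbers. Deviations of same-numbered libraries had r of -0.01 and -0.30. With only 2 such numbers these values cannot decide whether the numbers pair samples. The main fit used no block, because the labels give none. Leaving out 1 library gave 26 to 1647 higher and 5 to 1537 lower genes and 2 to 8 members called, the highest each time without BRD4780 replicate 3. Without that library Atf3, Ddit3 and Nupr1 were also called, at log2 fold changes of 1.01, 1.02 and 1.67. Trib3 lost its call without BRD4780 replicate 1 (2.65) or vehicle replicate 1 (2.60), Chac1 without vehicle replicate 1 (2.36) or 2 (2.40), and Cebpb without any 1 library other than BRD4780 replicate 3 (1.06 to 1.24) and with limma-voom (1.05). Under the block Atf4 (0.63), Cebpb (1.296) and Chac1 (2.03) lost theirs. Atf5 was called in all 16 alternatives. Of 160 member values under alternatives 159 were positive, while 6952 of all 13474 genes tested were positive in the main fit. The alternatives reuse the same 8 libraries, and the members were picked with this comparison in view. Nothing is therefore read from these counts. The cause of the changes between alternatives was not tested. Among the members Trib3, Chac1 and Atf3 had the fewest counts, and BRD4780 replicate 4 was the shallowest library. The part of depth in the calls was not tested.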

Other observations

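Other gene groups touch the 10 regulators through single members. Sesn2 and Atf3 are also known targets of p53. Of 18 tested p53 targets 3 rose (16.7%, against 2.3% of all genes) and 0 fell, with a median log2 fold change of 0.25. They were the kinase gene Plk3, at 31.4 ± 13.5 CPM with BRD4780 and 5.71 ± 2.31 CPM with vehicle, the death receptor gene Fas, at 15.1 ± 3.7 CPM with BRD4780 and 7.80 ± 0.57 CPM with vehicle, and the hormone gene Gdf15, at 9.83 ± 1.69 CPM with BRD4780 and 5.24 ± 0.935 CPM with vehicle (SD, n = 4 each). Gdf15 is also among the ATF4 targets. The count of p53 targets was 7 without BRD4780 replicate 3, where 23.5% of all genes were called, and 0 to 1 without any 1 of the other libraries. Sesn2 acts on mTORC1 through the GATOR complexes, and of 14 tested genes of that amino acid sensing machinery 0 were called by edgeR in either direction (2 higher by DESeq2), with the smallest p at the arginine sensor gene Slc38a9 (21.6 ± 3.3 CPM with BRD4780 and 14.7 ± 2.5 CPM with vehicle; adjusted p = 0.0681 by edgeR, SD, n = 4 each). Chac1 consumes glutathione, and of 12 tested genes of glutathione synthesis and breakdown 1 fell, the synthetase gene Gss, at 414, 329, 480 and 332 CPM with BRD4780, against 584, 611, 571 and 596 CPM with vehicle (log2 fold change -0.60 ± 0.12 SE, adjusted p = 0.0357 by edgeR). Exons of Gss share 15.4% of their length with genes on the opposite strand. Without BRD4780 replicate 3, 6 genes of this list were called lower and 1 higher, and 0 without any 1 of the other libraries. Over all genes tested 0.623% were called lower, and 23.5% were called either way without BRD4780 replicate 3.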
